A study of Mus musculus with 28 samples.

Results

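Among 8 single cells picked from the dissociated mouse retina at postnatal day 13 (P13), 5 expressed genes of vascular endothelium and fewer genes of Müller glia, and 3 expressed the genes of Müller glia. These 5 endothelial-like cells and 3 Müller-like cells were compared gene by gene. The sides were chosen on the measured signals of these same cells, so the differences between them describe the cells and carry no test and no p-value. The 8 cells are 8 of the 28 arrays of the series, with 1 array per cell. The endothelial-like cells were A3, A4 and A5 of the congenic FVB mice and A1 and B1 of the rd1 mice, and the Müller-like cells were rd1 B4, A4 and B3.

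The congenic mice (FVB.129P2-Pde6b+Tyrc-ch/AntJ) are labelled wildtype and carry the functional Pde6b allele. The rd1 mice are on the FVB strain and carry a mutation in the beta subunit of rod cGMP phosphodiesterase, which leads to the death of rods. The other 20 arrays, used here only to see where the same genes were expressed, held cells of adult C57/BL6 wild-type mice, labelled as over 25 weeks of age where the study's own text sets a younger minimum, of Rhod-ko mice on C57/BL6, which lack the rod-specific Rhodopsin gene, at 8 and 25 weeks, and of rd1 mice at 5 weeks, with 5 arrays in each group. Every cell was taken as a Müller glial cell (MGC) by its shape after papain treatment, and no label names an animal, so cells of one group may share a mouse. All 3 congenic cells lie on the endothelial-like side and all 3 Müller-like cells are rd1, so the side and the genotype cannot be told apart for these cells. Values within rd1, A1 and B1 against B4, A4 and B3, are therefore given as well.

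Endothelial cells line the vessels of the inner retina and form the inner blood-retina barrier. Tight junctions seal the gaps between them, transcytosis is kept low, and nutrients cross through carriers while efflux pumps return foreign molecules to the blood. Müller glia span the neural retina, take up glutamate, water and potassium, recycle visual chromophore and wrap the vessels with their endfeet. They are also a source of Norrin, the ligand of Frizzled4 with its co-receptor Lrp5 and the tetraspanin Tspan12 on endothelium, a pathway needed for retinal vessels and their barrier.

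Promoter windows of some of the genes on which the sides are told apart are shown here so that the sequence can be read beside the signals. Each runs from 250 bases before to 50 bases after the start of the gene as RefSeq gives it (GRCm38.p6), 5′ to 3′ on the strand of the gene. Capitals mark AGGAAG, a core bound by ETS factors, or ACAAAG, a core bound by SOX factors, on either strand (CTTCCT and CTTTGT on the other). The windows are those of the tight junction gene Cldn5 at chr16:18776597-18776896 (+), the angiopoietin receptor gene Tek at chr4:94739039-94739338 (+), the efflux pump gene Abcb1a at chr5:8566841-8567140 (+) and the Müller glia gene Rlbp1 at chr7:79386978-79387277 (-).
Cldn5: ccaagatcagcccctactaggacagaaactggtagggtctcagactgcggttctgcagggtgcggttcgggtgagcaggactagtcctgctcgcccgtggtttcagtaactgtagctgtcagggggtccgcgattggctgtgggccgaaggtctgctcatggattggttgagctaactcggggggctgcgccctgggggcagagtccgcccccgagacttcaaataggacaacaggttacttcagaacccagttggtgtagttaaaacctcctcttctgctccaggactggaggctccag
Tek: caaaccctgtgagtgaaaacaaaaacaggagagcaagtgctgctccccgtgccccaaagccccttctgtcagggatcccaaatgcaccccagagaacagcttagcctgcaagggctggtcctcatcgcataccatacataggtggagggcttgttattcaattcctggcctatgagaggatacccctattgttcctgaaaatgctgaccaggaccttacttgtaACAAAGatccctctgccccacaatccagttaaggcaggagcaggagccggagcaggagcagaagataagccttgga
Abcb1a: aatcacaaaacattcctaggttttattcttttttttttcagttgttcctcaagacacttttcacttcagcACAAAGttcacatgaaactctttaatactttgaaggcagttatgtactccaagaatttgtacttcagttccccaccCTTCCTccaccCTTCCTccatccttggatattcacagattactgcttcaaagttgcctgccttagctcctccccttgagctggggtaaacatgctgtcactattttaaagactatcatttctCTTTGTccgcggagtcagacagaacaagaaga
Rlbp1: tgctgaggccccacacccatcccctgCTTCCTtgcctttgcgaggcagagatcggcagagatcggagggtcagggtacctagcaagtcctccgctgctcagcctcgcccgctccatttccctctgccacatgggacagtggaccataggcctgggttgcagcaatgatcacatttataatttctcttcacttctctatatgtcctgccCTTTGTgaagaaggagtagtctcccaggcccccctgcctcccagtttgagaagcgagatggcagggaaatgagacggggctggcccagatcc

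The Abcb1a window held 2 matches to the ETS core and 2 to the SOX core, Tek held 1 SOX match, Rlbp1 held 1 of each and Cldn5 held neither string of letters. Over all 32851 promoter windows 35.4% held the ETS core and 18.7% the SOX core. Of the 299 windows of genes that were higher in every endothelial-like cell than in any Müller-like cell, 38.1% held the ETS core, against 29.1% of the 378 windows of genes that were lower and 33.8% of the 18110 windows of all genes measured. For the SOX core the shares were 11%, 12.2% and 15.9%. These shares describe letters in the windows and were not tested. Windows were found for 225 of the 304 higher genes and 273 of the 324 lower genes.

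Signals are MAS 5.0 intensities, and a gene is called on where its signal reached 2000. Each side was summarised by the median of its log2 signals, with signals under 1000 raised to 1000, and differences are endothelial-like minus Müller-like on that log2 scale. Where 1 median lay under 1000, the size of the difference is a lower bound and is written as at least. Of 18194 genes, 9009 were under 1000 in all 8 cells, and for 12999 both medians were under 1000. The median was at least 2-fold higher in the endothelial-like cells for 1156 genes (6.35%) and at least 2-fold lower for 1264 (6.95%). For 304 genes (1.67%) every endothelial-like cell lay above every Müller-like cell, and for 324 (1.78%) every one lay below, with medians at least 2-fold apart in both cases. Overlap was judged on the raised signals, so a gene under 1000 in a cell of each side overlaps. The median difference over all genes was 0. Just inside the 2-fold threshold lay Kmt2c, with medians of 2000 and under 1000, and Ulk2, with medians of 1215 and 2431. Just outside it lay Rps6ka3 with medians of 2406 and 1204, and Mxi1 with a Müller-like median of 1999 against one under 1000.

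**Figure D1:**
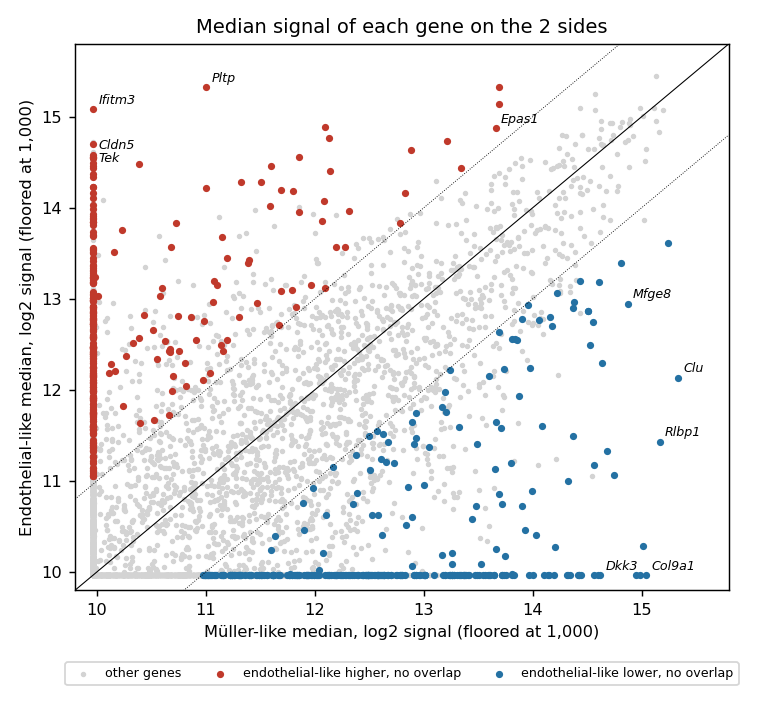
Median signal of each gene in the 5 endothelial-like cells (vertical axis) against the 3 Müller-like cells (horizontal axis), both on a log2 scale with signals under 1,000 raised to 1,000. Red and blue points are the 304 and 324 genes without overlap between the sides, grey points are the other genes, the solid line marks equal medians and the dotted lines a 2-fold difference, and Ifitm3 and Col9a1 lie farthest from equality among the genes without overlap.

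The arrays of the sides were alike in breadth. Genes on numbered 2927 to 2998 in the endothelial-like cells and 2841 to 3072 in the Müller-like cells, and the 100 strongest probe sets held 8.6% to 9.8% and 8.7% to 9.7% of the signal. The ratio of the 3′ to the 5′ probe set of Gapdh was 1.97 to 3.0 in the endothelial-like cells and 1.3 to 1.67 in the Müller-like cells, without overlap. Its part in the differences below was not tested. Housekeeping genes were on in like numbers, 9 to 10 of 11 against 9 of 11, with a median difference of 0.07. Of the 11, 2 were at least 2-fold higher in the endothelial-like cells, B2m among them (2.10, without overlap). In the other direction 1 was lower, Pgk1 (-2.07, overlapping).

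The endothelial identity genes divided the cells. Of 30 measured, 26 were at least 2-fold higher in the endothelial-like cells, 1 was lower and 3 were neither, and 22 did not overlap, with a median difference of 3.03. Each endothelial-like cell had 24 to 27 of the 30 on, and each Müller-like cell 1 or 2. The sides were chosen on such genes, so these counts restate the choice. Signals are given below for the congenic cells A3, A4 and A5, then rd1 A1 and B1, then Müller-like B4, A4 and B3, always in that order.

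Cldn5, which seals the tight junctions of barrier endothelium, measured 23801, 29446 and 27797 in the congenic cells, 23455 and 24580.4 in the rd1 cells A1 and B1, and 54.2, 2982 and 996 in the Müller-like cells. The 5 endothelial-like cells lay within a narrow band, and of the others only rd1 A4 was on. Tek, the receptor of angiopoietins, measured 13332, 12696 and 27248 in the congenic cells, 22266 and 23543 in the rd1 cells A1 and B1, and 13.8, 17.6 and 51.7 in the Müller-like cells. Its difference was at least 4.48, and no Müller-like cell came near 1000. Nos3, the endothelial nitric oxide synthase, measured 6769, 4924 and 4642 in the congenic cells, 10353 and 14362 in the rd1 cells A1 and B1, and 78.7, 234 and 146 in the Müller-like cells. The highest signals of Nos3 were those of the rd1 cells, and the difference was at least 2.76.

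Abcb1a, the P-glycoprotein efflux pump of barrier vessels, measured 4022, 7348 and 16477 in the congenic cells, 5519 and 2721 in the rd1 cells A1 and B1, and 12.8, 56 and 82.6 in the Müller-like cells. It was on in all 5 endothelial-like cells, lowest in rd1 B1, with a difference of at least 2.46. Abcg2, a second efflux pump, measured 13854, 10214 and 7740.3 in the congenic cells, 11482 and 4519.6 in the rd1 cells A1 and B1, and 2744, 152 and 441 in the Müller-like cells. Here rd1 B4 was on among the Müller-like cells, yet below rd1 B1, the lowest of the other side, and the difference was at least 3.35.

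The adhesion molecules of endothelial contacts were on in each of the 5 cells. Cdh5, the cadherin of endothelial adherens junctions, measured 7779, 11915 and 9242 in the congenic cells, 8657 and 9690.5 in the rd1 cells A1 and B1, and 101, 92.8 and 49 in the Müller-like cells. Pecam1, which joins neighbouring endothelial cells, measured 4586, 2828 and 5127 in the congenic cells, 5256 and 4622 in the rd1 cells A1 and B1, and 27.9, 16.2 and 58.1 in the Müller-like cells. Both were under 150 in every Müller-like cell, with differences of at least 3.21 and at least 2.21. Esam, a junctional adhesion molecule, ran from 16948 to 26537 in the endothelial-like cells and from 26.1 to 2194 in the Müller-like cells. Ptprb, a phosphatase that restrains Tek signalling, ran from 22491 to 28895 in the endothelial-like cells and from 64 to 640.2 in the Müller-like cells. Neither overlapped, and rd1 A4 was the 1 Müller-like cell with Esam on.

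Many differences of the list are lower bounds, set by the floor on the Müller-like side and the signal on the other, so they rank no gene above another. The highest bounds were those of Tm4sf1 (at least 4.74), a tetraspan membrane protein, Egfl7 (at least 4.60), a secreted factor of endothelium, Ptprb (at least 4.59) and Esam (at least 4.58). They were followed by Ramp2 (at least 4.49), which pairs with the adrenomedullin receptor Calcrl, Cd93 (at least 4.19) and the sialomucin Cd34 (at least 3.93). Flt1, a VEGF receptor, ran from 2374 to 13643 in the endothelial-like cells and from 82.7 to 734 in the Müller-like cells and did not overlap. Of the 30 genes, 21 were on in none of the 19 cells from outside P13, Tek, Cdh5, Pecam1, Cd34 and Cd93 among them, while 47.4% of all genes measured were on in none of these cells.

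Several members did not follow the list. Kdr, the main VEGF receptor of endothelium, measured 4667, 1412 and 8161 in the congenic cells, 2366 and 398 in the rd1 cells A1 and B1, and 6813, 2545 and 5080.5 in the Müller-like cells. It was the 1 member with a lower median in the endothelial-like cells (difference -1.10), the sides overlapped, and it was on in 15 of the 19 cells outside P13. The Kdr difference was under 2-fold with means in place of medians and on leaving out congenic A4, rd1 A1, B1, B4 or B3. Vwf, the clotting factor stored in endothelial granules, measured 11548, 979 and 61.9 in the congenic cells, 4964 and 27701 in the rd1 cells A1 and B1, and 7.7, 76.2 and 38.6 in the Müller-like cells, so that rd1 B1 and congenic A3 were high while congenic A4 and A5 were under 1000. Plvap, the diaphragm protein of fenestrated and leaky vessels, reached 4827 in rd1 B1 and was under 1000 in the other 4 endothelial-like cells. Mcam was under 100 in all 8 cells.

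**Figure D2:**
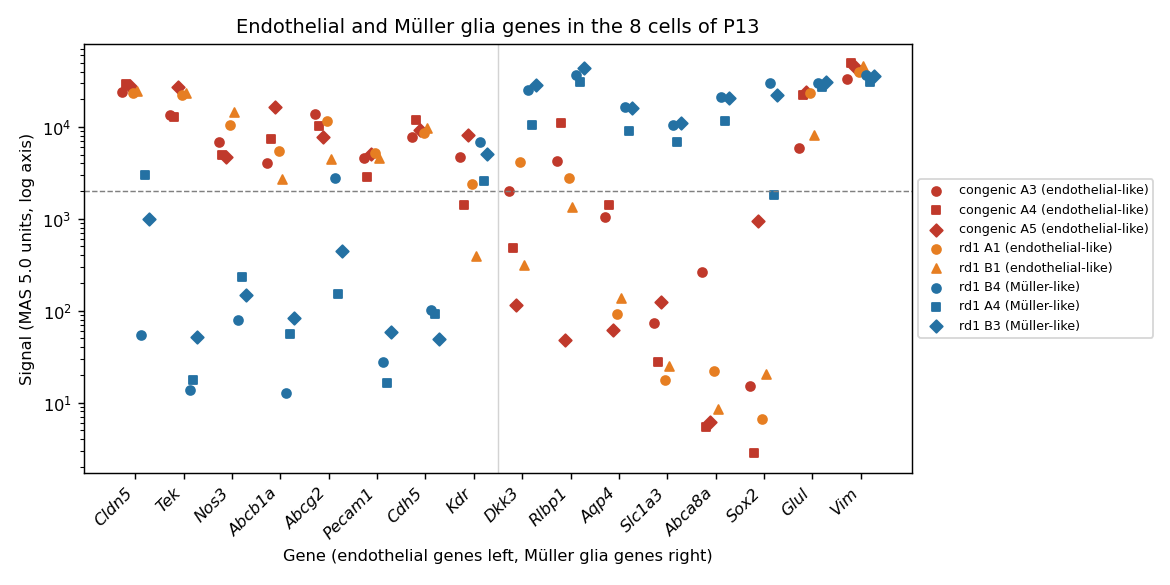
Signal (MAS 5.0 units, log axis) of 8 endothelial genes and 8 Müller glia genes in each of the 8 P13 cells, with 1 point per cell and the dashed line at 2,000. The endothelial-like cells (red congenic, orange rd1) lie above the Müller-like cells (blue) for the endothelial genes other than Kdr. They lie below them for the Müller glia genes from Dkk3 to Glul, narrowly for Glul, and Vim is strong in every cell.

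Transcription factors of endothelium followed the same division at lower signals. Of 23 measured, 14 were at least 2-fold higher, none was lower, and 11 did not overlap, with a median difference of 1.31. The count on per cell was 11 to 18 against 2 to 4. Sox17, a SOX factor of arterial and barrier endothelium, measured 6387, 6585 and 16965 in the congenic cells, 7662 and 13193 in the rd1 cells A1 and B1, and 27.5, 65.3 and 61.9 in the Müller-like cells. Every endothelial-like cell was on and every Müller-like cell under 100. Klf2, which responds to blood flow, ran from 3918 to 14765 in the endothelial-like cells and from 59.5 to 162 in the Müller-like cells. Its relative Klf4 ran from 4856 to 11144 in the endothelial-like cells and from 77 to 2550.3 in the Müller-like cells. Neither overlapped, with differences of at least 2.80 and at least 3.02. Ets1, an ETS factor, had a difference of at least 2.76.

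Factors tied to vessels of the brain and retina were also present. Foxq1 and Foxf2, forkhead factors of barrier endothelium, had differences of at least 2.51 and at least 1.77, and Foxc1 one of at least 2.17. Foxq1 measured 2087, 9777 and 9172 in the congenic cells, 5681 and 1508 in the rd1 cells A1 and B1, and 83.4, 58.9 and 116 in the Müller-like cells, and was weakest in rd1 B1 and congenic A3. Mecom, a factor of arterial endothelium, measured 1104, 5659 and 14786 in the congenic cells, 5629 and 14876 in the rd1 cells A1 and B1, and 40.2, 10.8 and 50.4 in the Müller-like cells, with congenic A3 far below the other 4 cells. Epas1, the hypoxia-inducible factor HIF-2 alpha, was strong on both sides, at 26114 to 37620.5 against 5352 to 19702, and still did not overlap (difference 1.21). Sox18 and Lyl1 stayed under 1000 in all 8 cells, and Erg, an ETS factor, had a difference of at least 0.24.

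Junction genes were split between those held by the endothelial-like cells and those held by all cells. Of 20 measured, 10 were at least 2-fold higher, none was lower, and 6 did not overlap, with a median difference of 1.02. Tjp1, the scaffold ZO-1, measured 12131, 6956 and 15202 in the congenic cells, 12194 and 14835 in the rd1 cells A1 and B1, and 297, 3351 and 1639 in the Müller-like cells. All 5 endothelial-like cells exceeded rd1 A4, the highest Müller-like cell, and the difference was 2.89. Lsr, a protein of tricellular junctions, and F11r, the adhesion molecule JAM-A, had differences of at least 2.88 and at least 2.63, both without overlap. Afdn and Jup, which link junctions to the cytoskeleton, had differences of at least 2.25 and 1.49. Ocln, a tight junction protein, measured 3368, 7113 and 914 in the congenic cells, 3216 and 4471 in the rd1 cells A1 and B1, and 11.8, 49.5 and 114 in the Müller-like cells, and congenic A5 was under 1000. The catenins Ctnnb1 and Ctnna1 were on in all 8 cells, with differences of 0.65 and 1.18. Cldn1, Cldn3, Tjp3 and Marveld3 stayed under 1000 in all 8 cells.

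In the Norrin and Wnt list the ligand gene Ndp was higher on the Müller-like side and Tspan12 on the other. The receptor gene Fzd4 and the co-receptor gene Lrp5 were not called. Ndp, which encodes Norrin, measured 33, 55.9 and 10.9 in the congenic cells, 10.2 and 9.2 in the rd1 cells A1 and B1, and 1035, 3047 and 2040.4 in the Müller-like cells. It was under 100 in every endothelial-like cell and at 1000 or more in every Müller-like cell, with a difference of at least -1.03. Of the 19 cells outside P13, only 4 had Ndp on. The Ndp difference was under 2-fold after quantile normalization, after scaling by the 90th percentile, with a floor of 2000 or with means in place of medians. Leaving out rd1 A4 or B3 also brought it under 2-fold. Tspan12, which strengthens the Norrin signal at Frizzled4, measured 3262, 2322 and 3439 in the congenic cells, 2884 and 3091 in the rd1 cells A1 and B1, and 348, 2.3 and 18.6 in the Müller-like cells. It was on in all 5 endothelial-like cells and under 1000 in all Müller-like cells, with a difference of at least 1.63 that was under 2-fold with a floor of 2000. Fzd4, the receptor, measured 1198, 30.6 and 1736 in the congenic cells, 1286 and 596 in the rd1 cells A1 and B1, and 36.6, 74.3 and 331 in the Müller-like cells. Only 3 endothelial-like cells passed 1000, none passed 2000, and its difference was at least 0.26. Lrp5, the co-receptor, was under 20 in all 8 cells.

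Of the 18 genes of this list 6 were at least 2-fold higher and 1 lower, with 4 and 1 without overlap and a median difference of 0. Apcdd1, a membrane inhibitor of Wnt signalling that is induced by it in barrier vessels, measured 16998, 33067 and 20755 in the congenic cells, 31034 and 16726 in the rd1 cells A1 and B1, and 6789, 134 and 207 in the Müller-like cells. All 5 endothelial-like cells lay above the highest Müller-like cell, rd1 B4, and the difference was at least 4.38. Of the 19 cells outside P13, 9 also had Apcdd1 on, with signals up to 29653, within the range of the endothelial-like cells. Fzd6, another Frizzled receptor, measured 4886, 5809 and 15832 in the congenic cells, 7064 and 6749 in the rd1 cells A1 and B1, and 55.9, 29.9 and 127 in the Müller-like cells, without overlap. Lef1, a nuclear partner of beta-catenin, had a difference of at least 2.27 but overlapped through rd1 A4 at 3504. Axin2, Wnt7a, Wnt7b and Notum were under 1000 in all 8 cells.

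Carriers and pumps of the barrier were on in most of the endothelial-like cells, with 1 exception. Of 29 measured, 18 were at least 2-fold higher, none was lower, and 7 did not overlap, with a median difference of 1.72. The number on was 24, 23 and 23 in the congenic cells and 25 in rd1 A1, but 11 in rd1 B1, against 8 to 11 in the Müller-like cells. Pltp, a phospholipid transfer protein of barrier endothelium, measured 35791, 48389 and 48346 in the congenic cells, 40995 and 25729.6 in the rd1 cells A1 and B1, and 2052, 1163 and 4014 in the Müller-like cells. It was strong in all 5 endothelial-like cells, and the difference was 4.32. Of the 19 cells outside P13, 9 also had Pltp on, with signals up to 52609, above every endothelial-like cell. Slco1a4, an organic anion carrier, measured 14759, 14425 and 21511 in the congenic cells, 8876 and 1279 in the rd1 cells A1 and B1, and 3.7, 13.5 and 4.0 in the Müller-like cells, and did not overlap although rd1 B1 was the lowest by far. Slc6a6, the taurine carrier, and Itm2a had differences of at least 3.04 and 2.63 without overlap. The glucose carrier Slc2a1 was strong everywhere, at 30006 to 45515 against 10052 to 24748, with a difference of 0.68.

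The lipid carrier Mfsd2a, which brings docosahexaenoic acid across the barrier and keeps transcytosis low, measured 16068, 25029 and 26206 in the congenic cells, 26311 and 52 in the rd1 cells A1 and B1, and 6.4, 14.9 and 29.9 in the Müller-like cells. The 4 other endothelial-like cells were strong and rd1 B1 was at the level of the Müller-like cells. The thyroid hormone carrier Slco1c1 measured 13866, 30174 and 29510.3 in the congenic cells, 26967 and 1426 in the rd1 cells A1 and B1, and 128, 2052 and 549.9 in the Müller-like cells. Again rd1 B1 was the 1 endothelial-like cell under 2000. Slc7a1, which carries cationic amino acids, measured 6546, 16188 and 16576 in the congenic cells, 15312 and 205 in the rd1 cells A1 and B1, and 828, 618 and 204 in the Müller-like cells. The organic anion carrier Slc22a8 measured 7427, 6333 and 5891 in the congenic cells, 6808 and 65.2 in the rd1 cells A1 and B1, and 19.2, 150.1 and 37.6 in the Müller-like cells. For both, rd1 B1 lay among the Müller-like signals.

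Some carriers that the Müller-like cells also had on were lowest in rd1 B1. Slc7a5, the large neutral amino acid carrier, measured 13409, 12051 and 10942 in the congenic cells, 14213 and 75.7 in the rd1 cells A1 and B1, and 7235, 3851 and 9849.6 in the Müller-like cells. Slc16a1, the monocarboxylate carrier, measured 17867, 26388 and 6072 in the congenic cells, 13985 and 23 in the rd1 cells A1 and B1, and 7626, 3373 and 6619.8 in the Müller-like cells. Slc38a3, a glutamine carrier that glia also use, measured 9009.5, 7328 and 6244 in the congenic cells, 7071 and 776 in the rd1 cells A1 and B1, and 9741, 4509.7 and 13618 in the Müller-like cells. In these 3 genes rd1 B1 was the lowest of the 8 cells, while the other 4 endothelial-like cells and all Müller-like cells were on. The iron exporter Slc40a1 and the zinc carrier Slc39a10 were 84.5 and 136 in rd1 B1, against at least 2863 and 6187 in the other 4 cells. These carriers were picked out after their values had been seen. Of the 29 genes, 8 were on in the 4 other endothelial-like cells and under 1000 in rd1 B1, while no such gene was found for any of the other 4 cells. Over all 18194 genes, 119 had this pattern for rd1 B1, against 31 for rd1 A1 and up to 149, in congenic A4, for the congenic cells.

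Caveolar genes divided by subunit. Of 9 measured, 6 were at least 2-fold higher, none was lower, and 5 did not overlap, with a median difference of 1.88. Cavin2, a coat protein of caveolae with a role in endothelium, measured 7008, 14439 and 13703 in the congenic cells, 5484 and 6704 in the rd1 cells A1 and B1, and 27.1, 34.8 and 31.6 in the Müller-like cells. Cavin1, the main coat protein, ran from 3463 to 11354 in the endothelial-like cells and from 313 to 1700.1 in the Müller-like cells, with a difference of at least 3.01. Both were on in all 5 endothelial-like cells and in none of the Müller-like cells. Ehd2, which holds caveolae at the membrane, had a difference of at least 2.81, its relative Ehd4 one of at least 1.88, and the chloride channel protein Clic4 one of at least 2.50. Cav1 itself, the caveolin that forms the pits, was strong on both sides at 7171 to 25976 and 12819 to 34035, with a difference of -0.75.

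Genes of the vascular basement membrane and its integrins were largely on the endothelial-like side. Of 24 measured, 17 were at least 2-fold higher, none was lower, and 14 did not overlap, with a median difference of 1.93. Col4a1, a chain of type IV collagen, measured 17579, 25691 and 28987 in the congenic cells, 22197 and 23042 in the rd1 cells A1 and B1, and 138, 5542 and 204 in the Müller-like cells. Col4a2, the chain it pairs with, ran from 17612 to 28599.7 in the endothelial-like cells and from 6.5 to 124 in the Müller-like cells. Their differences were at least 4.53 and at least 4.41, and rd1 A4 was the 1 Müller-like cell with Col4a1 on. Fn1, fibronectin, measured 24678, 19912 and 23937 in the congenic cells, 15747 and 19303 in the rd1 cells A1 and B1, and 3661, 1224 and 2558 in the Müller-like cells. It was on in 2 Müller-like cells and still did not overlap (difference 2.96).

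Laminin chains differed among themselves. Lamb2 had a difference of at least 3.26 without overlap, while Lama4, the alpha chain of endothelial laminin, measured 8811, 791 and 18917 in the congenic cells, 5048 and 14928 in the rd1 cells A1 and B1, and 15.5, 14.8 and 84.1 in the Müller-like cells and counts as overlapping because congenic A4 was under 1000. Agrn, the proteoglycan agrin, and Serpinh1, the collagen chaperone, were on in all or most Müller-like cells and higher in the endothelial-like cells, with differences of 2.86 and 2.69. Of the 19 cells outside P13, 14 had Agrn on, up to 33930, while 8 had Serpinh1 on and 6 Lamb2. Of the 24 genes, 13 were on in none of these 19 cells, as were 47.4% of all genes measured. Mmrn2, an extracellular protein of endothelium, measured 1768, 3275 and 5673 in the congenic cells, 12798 and 15884 in the rd1 cells A1 and B1, and 88.1, 112 and 96.2 in the Müller-like cells, highest in the rd1 cells. Sparcl1 measured 18414, 14785 and 26565 in the congenic cells, 16758 and 2346 in the rd1 cells A1 and B1, and 13.1, 68.4 and 12.6 in the Müller-like cells, with rd1 B1 well below the other 4 cells. Itga6, a laminin receptor subunit, was 82.9 in rd1 B1 and at least 3429 in the other 4. Sparc was strong in all 8 cells, with a difference of -0.11.

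Signalling genes of vessel growth gave a mixed picture. Of 29 measured, 12 were at least 2-fold higher, 1 was lower, and 7 did not overlap, with a median difference of 0.43. Notch4, the Notch receptor of endothelium, measured 2281, 1592 and 10133 in the congenic cells, 10459.6 and 16571 in the rd1 cells A1 and B1, and 51.9, 57.1 and 42.2 in the Müller-like cells. Its ligand Jag1 measured 3229, 6426 and 5849.7 in the congenic cells, 9172 and 15726 in the rd1 cells A1 and B1, and 12.5, 28.5 and 58.4 in the Müller-like cells. Both were lower in congenic A3 and A4 than in rd1 B1, and neither was above 100 in any Müller-like cell. Tgfbr2, the TGF-beta receptor, ran from 5294 to 17414 in the endothelial-like cells and from 91.3 to 130.4 in the Müller-like cells, and Bmpr2, a BMP receptor, from 12322 to 17438 in the endothelial-like cells and from 96.4 to 7435 in the Müller-like cells, with differences of at least 3.30 and 2.53. Id1, a target of BMP signalling, had a difference of 2.43, and its relative Id3 was strong in all 8 cells (difference 0.56). Nrp1, a co-receptor of VEGF, and Pdgfb, the ligand that recruits pericytes, had differences of 1.04 and at least 1.95 without overlap, Nrp1 close to the threshold and under it in 5 of the alternatives. Genes known from sprouting tip cells differed among themselves. Esm1, Angpt2 and Kcne3 were under 200 in all 8 cells. Dll4, a Notch ligand, measured 414, 1434 and 2715 in the congenic cells, 1121 and 4715 in the rd1 cells A1 and B1, and 70.9, 24.2 and 106 in the Müller-like cells. Unc5b, a netrin receptor, measured 81.8, 3211 and 4502 in the congenic cells, 4029.7 and 1748 in the rd1 cells A1 and B1, and 309.7, 62.9 and 98.2 in the Müller-like cells. Dll4 was on in 2 endothelial-like cells and Unc5b in 3, and neither was on in a Müller-like cell. The growth factor gene Vegfa was under 300 in all 8 cells. The member in the other direction was Mmp14, a membrane protease, with a difference of at least -1.11, overlapping sides and a difference under 2-fold in 7 of the alternatives.

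Of 16 genes of MHC class I and interferon-related surface proteins, 6 were at least 2-fold higher, none was lower, and 5 did not overlap, with a median difference of 0.64. Ifitm3, an antiviral membrane protein, measured 24343, 31301 and 34788 in the congenic cells, 36137 and 43246 in the rd1 cells A1 and B1, and 4.6, 58.5 and 14.7 in the Müller-like cells. All 5 endothelial-like cells were strong and every Müller-like cell was under 100 (difference at least 5.12), although 11 of the 19 cells outside P13 had it on. Ly6e, a surface protein anchored by lipid, measured 30402, 24603 and 36828 in the congenic cells, 30411 and 32152 in the rd1 cells A1 and B1, and 19.8, 4379 and 9942 in the Müller-like cells. B2m and the heavy chains H2-K1 and H2-D1 of class I had differences of 2.10, 1.93 and 2.18. H2-K1 measured 6043, 6887 and 7124 in the congenic cells, 10569.8 and 20867 in the rd1 cells A1 and B1, and 333, 1999 and 1868 in the Müller-like cells, highest in rd1 B1. The interferon genes Tap2, Cd274 and Psmb9 were under 500 in all 8 cells.

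Other strong genes of the endothelial-like side lay outside the lists. Srgn, the core protein of a granule proteoglycan, measured 15178, 31313 and 29433 in the congenic cells, 24016 and 23742 in the rd1 cells A1 and B1, and 6.0, 13.3 and 6.9 in the Müller-like cells. Podxl, a sialomucin of the luminal surface, ran from 17225 to 25662 in the endothelial-like cells and from 13.5 to 4080.3 in the Müller-like cells, and Slc9a3r2, a scaffold that binds it, from 12028 to 27662 in the endothelial-like cells and from 63.5 to 216 in the Müller-like cells. The differences of these 3 genes were at least 4.59, at least 4.26 and at least 4.26.

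The Müller glia genes showed the reverse. Of 25 measured, 18 were at least 2-fold lower in the endothelial-like cells, none was higher, and 16 did not overlap, with a median difference of -2.97. The endothelial-like cells had 7 to 11 of the 25 on and the Müller-like cells 19 to 22, so the endothelial-like cells were not free of these genes. The sides were chosen on such genes as well, so these counts restate the choice. Slc1a3, the glutamate transporter GLAST, measured 74, 27.7 and 124 in the congenic cells, 17.5 and 24.8 in the rd1 cells A1 and B1, and 10582, 6866 and 11012 in the Müller-like cells. No endothelial-like cell passed 200 and every Müller-like cell was on. Sox2, a transcription factor of Müller glia, measured 15.2, 2.8 and 955 in the congenic cells, 6.7 and 20.7 in the rd1 cells A1 and B1, and 30284, 1821 and 22014 in the Müller-like cells. Here rd1 A4 was below 2000 and the other Müller-like cells were strong.

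Aqp4, the water channel of endfeet, measured 1036, 1410.2 and 62.1 in the congenic cells, 91.9 and 139 in the rd1 cells A1 and B1, and 16247, 9124 and 16032 in the Müller-like cells. Abca8a, a lipid transporter, measured 264, 5.4 and 6.1 in the congenic cells, 21.8 and 8.5 in the rd1 cells A1 and B1, and 21278, 11617 and 20726 in the Müller-like cells. Dkk3, a secreted protein of Müller glia, measured 2020.0, 479.9 and 116 in the congenic cells, 4136 and 316 in the rd1 cells A1 and B1, and 25141, 10579 and 28557 in the Müller-like cells. For these 3 genes the sides were far apart, with differences of at least -4.00, at least -4.37 and at least -4.65, and congenic A3 and rd1 A1 had Dkk3 on. Gpr37, a receptor of glia, and Car2, a carbonic anhydrase, had differences of at least -4.60 and at least -3.65.

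Rlbp1, the retinaldehyde-binding protein of the chromophore cycle, measured 4301, 10969 and 47.5 in the congenic cells, 2762 and 1355 in the rd1 cells A1 and B1, and 36778, 30469 and 43666 in the Müller-like cells. It was on in 3 of the 5 endothelial-like cells, highest in congenic A4, and every one of them lay below the Müller-like cells (difference -3.74). Crym, a thyroid hormone binding protein, was likewise on in 4 endothelial-like cells at 34 to 8203 over the 5, against 26889 to 34943. Clu, clusterin, measured 3936, 4489 and 5035 in the congenic cells, 3779 and 23076 in the rd1 cells A1 and B1, and 38018, 41210.3 and 46152 in the Müller-like cells, with rd1 B1 far above the other 4 cells.

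Some genes used as Müller glia markers divided the cells weakly or not at all. Vim, the filament protein vimentin, measured 32886, 48945 and 44548 in the congenic cells, 39276 and 45794 in the rd1 cells A1 and B1, and 36807, 30656 and 35931 in the Müller-like cells. All 8 cells were strong, and the difference was 0.31. Glul, glutamine synthetase, measured 5862, 22309.7 and 23889 in the congenic cells, 23177 and 8252 in the rd1 cells A1 and B1, and 30177, 27033 and 30726 in the Müller-like cells. It was on in all 8 cells, lowest in congenic A3 and rd1 B1. Every endothelial-like cell lay below every Müller-like cell, but the difference of -0.44 was under 2-fold. Within rd1 the Glul difference was -1.13. Kcnj10, the potassium channel of endfeet, was under 1000 in every endothelial-like cell and at 1797 to 3499 in the Müller-like cells, a difference of at least -1.05 that was under 2-fold after either other scaling, with a floor of 2000 or without rd1 B3. Apoe was under 500 in all 8 P13 cells while 15 of the 19 cells outside P13 had it on.

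Eye field and progenitor factors were lower on the endothelial-like side for 6 of 17 genes and higher for 1, with 4 and 0 without overlap and a median difference of -0.16. Pax6, a master factor of the eye field, measured 812, 114 and 89.5 in the congenic cells, 689.5 and 151 in the rd1 cells A1 and B1, and 11014, 3386 and 9668 in the Müller-like cells. Every endothelial-like cell was under 1000 and every Müller-like cell on. Lhx2 and Dapl1 had differences of at least -2.97 and -3.32. Ccnd1, cyclin D1, was the member in the other direction, with 10412, 2934 and 7337 in the congenic cells, 3829 and 203 in the rd1 cells A1 and B1, and 1093, 568 and 5647 in the Müller-like cells, and overlapped.

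Genes of reactive gliosis were lower for 8 of 20 and higher for 3, with 5 and 0 without overlap and a median difference of 0. Gfap, the filament protein that rises in gliosis, measured 77.8, 37.1 and 85.7 in the congenic cells, 153 and 3684 in the rd1 cells A1 and B1, and 22705, 22292 and 11717 in the Müller-like cells. Only rd1 B1 of the endothelial-like cells had it on, and all Müller-like cells were strong. Serpina3n, a protease inhibitor, S100a6, Tgfb2 and the adhesion receptor Cd44 had differences of at least -2.23, -2.35, -2.32 and at least -1.54, without overlap. The 3 higher genes were the filament gene Nes, the linker Plec and the receptor Il6st, with differences of at least 2.28, at least 3.68 and at least 2.08, all overlapping. Nes measured 4844, 69.1 and 14241 in the congenic cells, 7979.9 and 162 in the rd1 cells A1 and B1, and 139, 198 and 120.1 in the Müller-like cells, on in 3 endothelial-like cells and in no Müller-like cell.

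Genes of glial energy and amino acid metabolism were lower for 6 of 18 and higher for none, with 4 without overlap and a median difference of -0.17. Psat1, of serine synthesis, measured 58.3, 18 and 91.6 in the congenic cells, 1120.0 and 76.6 in the rd1 cells A1 and B1, and 13799, 13047 and 26336 in the Müller-like cells. Aldoc, the brain form of aldolase, measured 2695, 3457 and 6.1 in the congenic cells, 2317 and 9.2 in the rd1 cells A1 and B1, and 25875, 24202 and 23750.2 in the Müller-like cells. Both sides were well apart, and Ldhb and the glycogen phosphorylase Pygb had differences of at least -3.41 and at least -2.16. Pkm and Hk1, of glycolysis, had differences of -0.20 and -0.14.

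Other strong genes of the Müller-like side lay outside the lists. Col9a1, a chain of type IX collagen, measured 873, 3269 and 75.6 in the congenic cells, 917 and 47.1 in the rd1 cells A1 and B1, and 35718, 13875 and 33632 in the Müller-like cells, a difference of at least -5.07. The collagen receptor kinase Ddr1 measured 265, 42.1 and 22 in the congenic cells, 8813 and 79.8 in the rd1 cells A1 and B1, and 32537, 26854 and 34036 in the Müller-like cells, with rd1 A1 the 1 endothelial-like cell on. Cryab, a small heat shock protein, measured 5120.1, 17.9 and 77.8 in the congenic cells, 8.7 and 23.5 in the rd1 cells A1 and B1, and 26898, 31727 and 38905 in the Müller-like cells, with congenic A3 the 1 cell on. Pfn2, a profilin, Synpr, a vesicle protein, the metallothionein Mt3, podoplanin (Pdpn), Cox4i2, Fxyd1 and the immediate early gene Fos had differences of -4.72, at least -4.63, at least -4.45, at least -4.36, at least -4.35, at least -4.23 and at least -4.46.

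**Figure D3:**
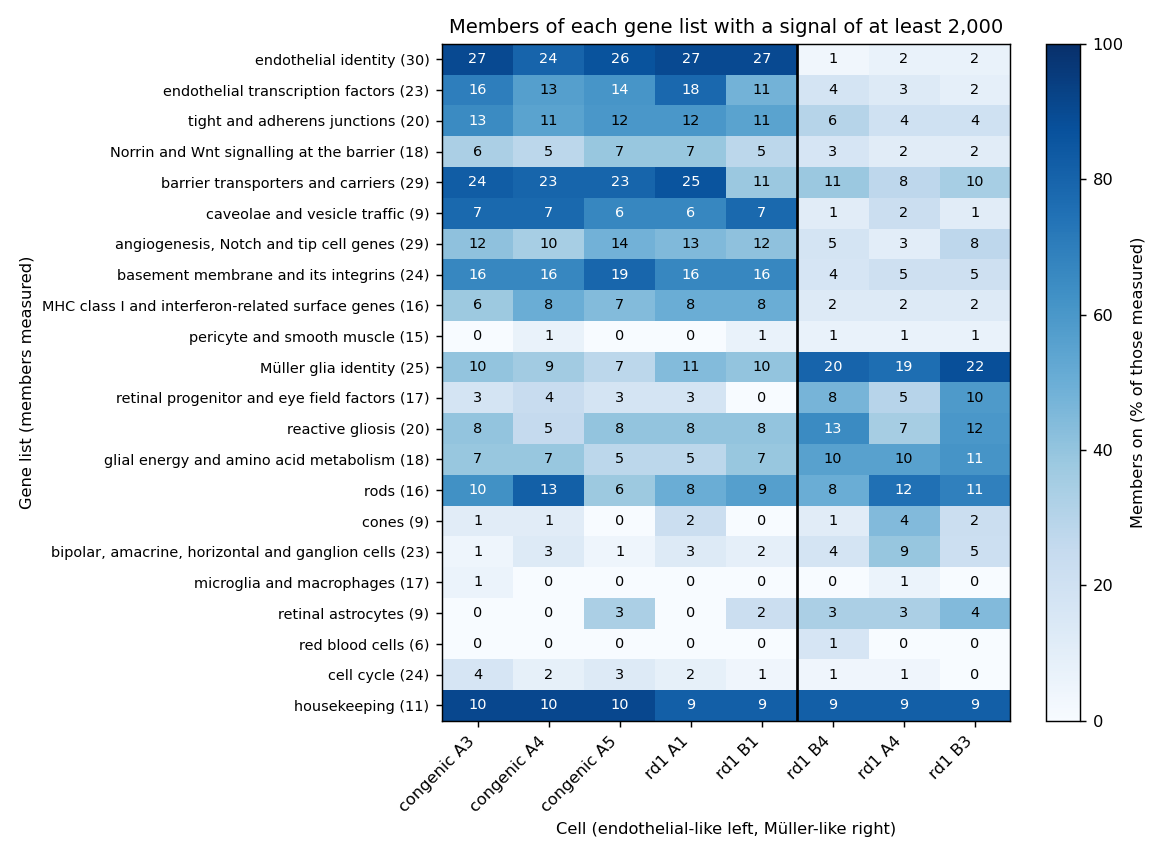
Members of each gene list that reached a signal of 2,000, by cell, with the count in each box and the shade giving the percent of the members measured. The endothelial lists are dense on the left of the black line and the Müller glia list on the right, rods are on both sides, pericyte, microglia and red blood cell genes are near 0, and rd1 B1 has 11 of 29 barrier transporters on.

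Genes of other cell types were read in the same way. Rod genes were present in every cell. Of 16 measured, 6 to 13 were on in the endothelial-like cells and 8 to 12 in the Müller-like cells, and their summed signals were 62671 to 241459 and 90559 to 229182. No rod gene was without overlap, and Pde6a, Gngt1 and Prph2 were under 2000 in all 8 cells. Sag, rod arrestin, measured 17261, 32117 and 19188 in the congenic cells, 19283 and 8578 in the rd1 cells A1 and B1, and 16947, 30216 and 22173 in the Müller-like cells, and congenic A4 and rd1 A4 were the highest of their sides. The median difference of the rod list was -0.40, with 6 of 16 lower by at least 2-fold and all overlapping. The part of rod transcripts in the differences between the sides was not tested.

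Pericyte and smooth muscle genes were nearly absent. Of 15 measured, 0 or 1 were on in each endothelial-like cell and 1 in each Müller-like cell, with summed signals of 957 to 5725 and 7432 to 12580. The defining pericyte genes Rgs5, Cspg4 and Kcnj8 were under 300 in all 8 cells, Pdgfrb was on in rd1 B4 only (10093), and the smooth muscle actin gene Acta2 was on in rd1 B1 only (3716). Of 17 microglia and macrophage genes, 0 or 1 were on in any cell, with summed signals of 747 to 4292 and 845 to 4918, and Tyrobp, Cx3cr1 and Aif1 were under 200 in all 8. Of 6 red blood cell genes, 1 was on in rd1 B4 and none in the other 7 cells, with summed signals of 155 to 1706 and 656 to 3235.

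Of 9 astrocyte genes, 3 were lower by at least 2-fold and without overlap, Gfap, Ndrg2 (-2.86) and Aldh1l1 (at least -2.56), genes that Müller glia also express. The astrocyte receptor Pdgfra was under 300 in all 8 cells. Summed signals were 926 to 9907 and 28508 to 43491. Genes of bipolar, amacrine, horizontal and ganglion cells were on in 1 to 3 of 23 against 4 to 9, with summed signals of 7580 to 22431 and 21271 to 104771, and 5 were lower. Thy1 (at least -1.59) was the 1 of them without overlap. Cone genes were on in 0 to 2 of 9 against 1 to 4, with summed signals of 530 to 11277 and 3062 to 29747. Cell cycle genes were on in 1 to 4 of 24 against 0 to 1, Mki67 and Top2a were under 300 in all 8, and cyclin D2 (Ccnd2) was the 1 gene at least 2-fold higher (at least 1.81, overlapping). The part of these transcripts in the differences between the sides was not tested.

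The 5 endothelial-like cells were not uniform. Of 18194 genes, those on in the other 4 cells and under 1000 in 1 numbered 45 for congenic A3, 149 for A4, 116 for A5, 31 for rd1 A1 and 119 for rd1 B1. Genes of arteries, capillaries and veins, in lists written after some of these values had been seen, differed between the cells and were not tested. Of 18 arterial genes, congenic A3 had 4 on, while congenic A4 and A5 had 14 each and rd1 A1 and B1 15 each, and the Müller-like cells had 0 to 4. Of 12 capillary genes, 10, 10 and 8 were on in the congenic cells and 11 in rd1 A1, against 1 in rd1 B1 and 2 to 4 in the Müller-like cells. All capillary genes other than Rgcc also belong to the barrier transporter list. The capillary counts therefore largely restate the carriers given above. Of 12 venous genes 5, 2 and 0 were on in the congenic cells, 4 in each rd1 cell and 1 in each Müller-like cell.

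Sema3g, an arterial semaphorin, measured 20.6, 13196 and 23727 in the congenic cells, 16954 and 23620.1 in the rd1 cells A1 and B1, and 7.4, 18.2 and 9.2 in the Müller-like cells. Gja4, a connexin of arteries, measured 12.2, 17971 and 9921 in the congenic cells, 19647 and 18772 in the rd1 cells A1 and B1, and 13.7, 53 and 24.7 in the Müller-like cells. In both, congenic A3 was at the level of the Müller-like cells and the other 4 endothelial-like cells were strong. The arterial genes Vegfc and Gkn3 were 296 and 214 in congenic A3 and at least 4394 and 5633 in the other 4. In the reverse direction, Aplnr, the apelin receptor found on veins and growing capillaries, was 17920.1 in congenic A3 and under 200 in the other 7 cells. Slc38a5, an amino acid carrier of capillaries and veins, measured 14104, 1.8 and 4.3 in the congenic cells, 3038 and 10.2 in the rd1 cells A1 and B1, and 5.2, 11.5 and 28.6 in the Müller-like cells, on in congenic A3 and rd1 A1 only.

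Rd1 B1 was strong in many arterial genes, with 15 of 18 on, as many as in rd1 A1. The arterial genes Hey2 (704), Unc5b (1748) and Cxcl12 (1682) were under 2000 in it. Gkn3 was 25368, Mgp, a matrix inhibitor of calcification, 25239, and Fbln5, an elastic fibre protein, 30077, each the highest of the 8 cells. Gja5, the connexin of larger arteries, was 4796 in rd1 B1 and under 200 in the others. The same cell lacked the 8 carriers named above. It was also the highest of the 8 in Vwf, Vcam1 (19846), Icam1 (7428) and Plvap, genes of the venous list, of which it had 4 of 12 on. It was also the endothelial-like cell with Gfap, Acta2 and Plvap on.

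**Figure D4:**
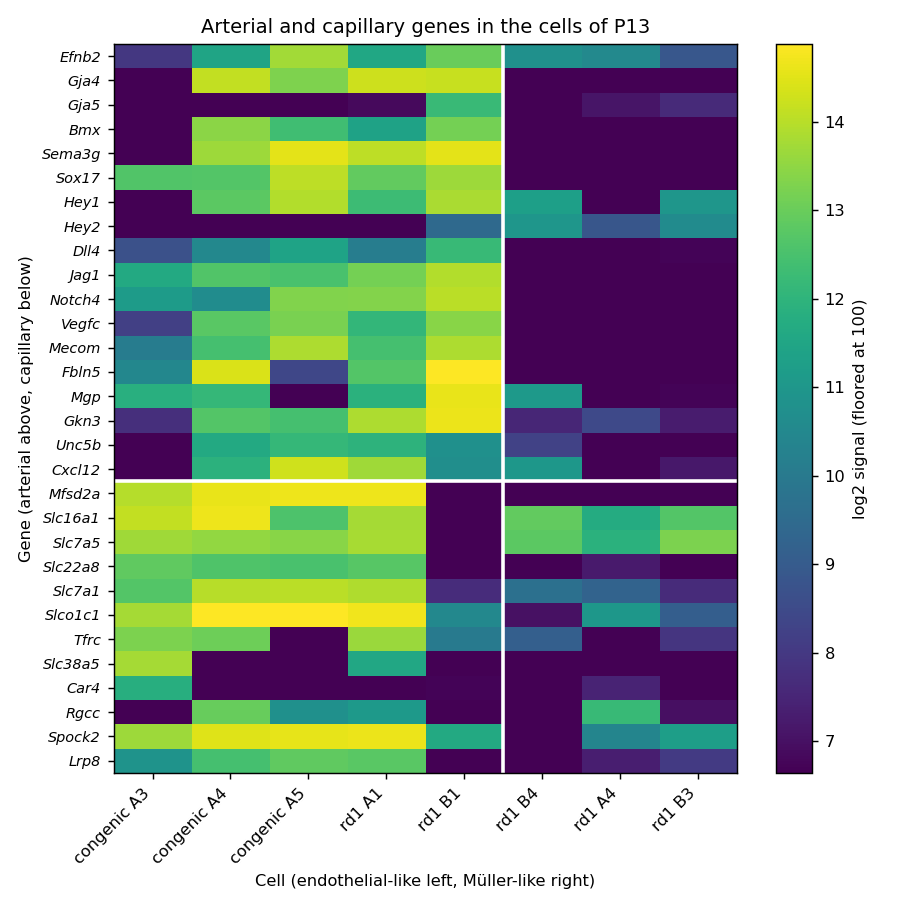
Signal of 18 arterial genes (above the white line) and 12 capillary genes (below it) in the 8 P13 cells, on a log2 scale with signals under 100 raised to 100. Congenic A3 is dark for most arterial genes (4 of 18 on) and rd1 B1 is dark for most capillary genes (1 of 12 on), while congenic A4, A5 and rd1 A1 are bright for both. All capillary genes other than Rgcc also belong to the barrier transporter list.

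Over all genes, cells of one side were on median more alike than cells of different sides, with ranges that overlapped for the Müller-like pairs. Pearson r of log2 signals floored at 100, over 18194 genes, was 0.585 to 0.765 among the 10 pairs of endothelial-like cells (median 0.662), 0.562 to 0.656 among the 3 pairs of Müller-like cells (median 0.584) and 0.432 to 0.57 between the sides (median 0.514). Rd1 A1 correlated with the congenic cells at 0.645 to 0.765 and with the Müller-like cells of its own genotype at 0.52 to 0.565. Rd1 B1 did so at 0.585 to 0.681 and 0.488 to 0.531. Without the genes of any list, over 17793 genes, the medians were 0.649, 0.575 and 0.519. There the highest pair between the sides reached 0.577. The lowest endothelial-like pair was 0.573 and the lowest Müller-like pair 0.555, so the ranges of both sides overlapped with it. These correlations are across genes, which are not independent replicates, and the sides were chosen on genes of the same arrays.

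Within rd1 alone, where strain, genotype and age are shared, A1 and B1 had 1392 genes (7.65%) at least 2-fold higher than B4, A4 and B3 and 1125 (6.18%) lower, with 712 (3.91%) and 500 (2.75%) without overlap. Of the endothelial identity genes 26 of 30 were higher, and of the Müller glia genes 19 of 25 were lower. The rd1 cells too were put on their sides by such genes. These counts, and the differences of single endothelial and Müller genes that follow, restate that choice. The differences within rd1 were at least 4.52 for Tek, at least 3.20 for Cdh5, at least 3.61 for Nos3, at least -3.40 for Slc1a3 and at least -4.00 for Aqp4. The carriers Slc16a1, Slc39a10 and Slc7a5 changed direction, with -0.82, -0.25 and -0.94 within rd1 against 1.08, 1.72 and 0.74 over all 8 cells. Rd1 B1, under 1000 for all 3 carriers, is 1 of the 2 endothelial-like cells in that comparison, so the values within rd1 depend on the floor. Among the 5 endothelial-like cells, 383 genes (2.11%) were higher in both rd1 cells than in all 3 congenic cells and 263 (1.45%) lower. Of the 304 genes without overlap on the endothelial-like side, 18 and 14 were among these.

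The 19 cells from outside P13 took no part in choosing the sides. For this count the A5 and A6 arrays of the rd1 mice aged 5 weeks, which correlated at 0.99 where the next pair of arrays reached 0.765, were averaged to 1 cell. Of the 304 genes without overlap on the endothelial-like side, 81 (26.6%) were on in none of the 19 cells and 44 (14.5%) in 10 or more of them. Of the 324 genes on the Müller-like side, 4 (1.23%) were on in none and 205 (63.3%) in 10 or more. Over all genes measured the shares were 47.4% and 7.6%. Per cell, 16.4% to 31.6% of the endothelial-side genes were on (median 23%) and 41.0% to 73.5% of the Müller-side genes (median 60.8%), so that each of the 19 cells held a larger share of the latter. The share of all genes on was not taken for each of these cells. Their summed housekeeping signals ran from 139456 to 515620, against 166818 to 203157 in the P13 cells, so the level of these percentages is not set against a common scale. Over all genes the cells outside P13 correlated with the endothelial-like cells at a median of 0.424 (0.296 to 0.549) and with the Müller-like cells at 0.505 (0.346 to 0.609).

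**Figure D5:**
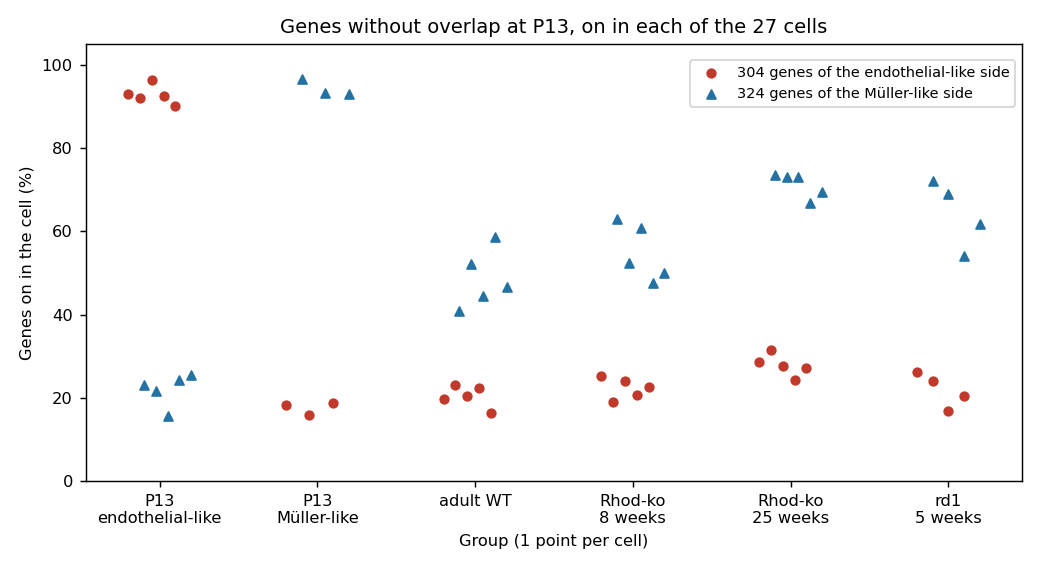
Percent of the 304 genes of the endothelial-like side (red circles) and of the 324 genes of the Müller-like side (blue triangles) that were on in each of 27 cells, by group, with 1 point per cell and gene set. The P13 cells chose these genes, and in each of the 19 cells from other ages the blue point (41.0% to 73.5%) lies above the red one (16.4% to 31.6%).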

How the data were processed

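Single cells were lysed, their mRNA was reverse transcribed from an oligo dT primer, and the tailed cDNA was amplified by 35 cycles of PCR and hybridized to Affymetrix Mouse Genome 430 2.0 arrays. The deposited values are signal intensities that the authors obtained with MAS 5.0 on a linear scale, and the 2% trimmed mean was 500.0 on each of the 8 P13 arrays. The arrays carry no read depth, so precision is limited by the number of cells. Amplification that favours 3′ ends and loss of rare transcripts can each leave a gene low in 1 cell.

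Of 45101 probe sets 34958 carry 1 gene symbol, 932 several and 9211 none. The first kind gave 18194 genes, and 34754 of these probe sets matched RefSeq (GRCm38.p6) by Entrez number. In each cell a gene was given the signal of its strongest probe set. Signals were floored at 1000, log2 medians of the sides were compared, and a gene was called at a difference of 1. No overlap means that every cell of one side lay beyond every cell of the other, with a called difference. No test was made, because the sides were chosen on the same signals and no animal is named.

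The cells, the 22 gene lists and the rule for named genes were chosen with earlier results of these data known. Genes not measured by a probe set with a single symbol were not analysed here. Named were the 5 markers Cldn5, Tek, Nos3, Abcb1a and Abcg2, up to 8 members without overlap per list, the 15 largest differences or bounds in each direction, defining markers, members against their list and the genes beside the threshold. Further barrier genes, the 3 vessel lists and further list members given as examples were added after their values were seen. Alternatives were quantile normalization, a common 90th percentile, a fixed probe set for every gene, floors of 500 and 2000, means, rd1 cells only, and leaving out each cell. The tools were matplotlib 3.10.9, SciPy 1.17.1, NumPy 2.4.6 and pandas 2.3.3 under Python 3.11.15, and the steps were tested on simulated data.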

Additional observations from a re-analysis of the deposited data

Results flagged for a closer look

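Among the 5 endothelial-like cells, 11 of 93 named genes that were on in at least 3 of them (11.8%) had 1 cell set apart from the other 4 by Dixon's criterion, which chance alone meets in about 5% of genes. In 7 of these genes rd1 B1 stood below the others. Its signals were 52.0 for Mfsd2a, 65.2 for Slc22a8, 776.3 for Slc38a3, 84.5 for Slc40a1, 75.7 for Slc7a5, 1425.5 for Slco1c1 and 2345.8 for Sparcl1. In the other 4 genes congenic A4 stood apart, above the others for Bmpr2 (17438.2) and below them for Il6st (78.9), Pecam1 (2827.7) and Tjp1 (6955.6). Part of the named genes were added for the low signals of rd1 B1, and all of these 7 other than Sparcl1 are among them. The count of 7 therefore largely restates that choice, and the 11.8% cannot be read against the 5%.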

How the results depend on the processing

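The counts of genes moved with the floor and with the cells compared. With a floor of 500, 1800 genes were at least 2-fold higher in the endothelial-like cells, and with a floor of 2000, 585 were higher and 685 lower. With rd1 cells only, 712 and 500 genes were higher and lower without overlap, where fewer cells are compared. On leaving out each cell in turn, 997 to 1177 genes were higher and 1170 to 1618 lower, 348 to 411 were higher without overlap, and 348 to 612 lower without overlap. The last count was 518 without rd1 B4, 612 without rd1 A4 and 533 without rd1 B3. Endothelial identity genes at least 2-fold higher numbered 25 to 26, and Müller glia genes lower 15 to 20. The differences of Slc16a1, Slc39a10 and Slc7a5 changed sign with rd1 cells only, to -0.82, -0.25 and -0.94, and that of Slc38a3 went from -0.46 to 0.09 without rd1 B3. Of 120 called named genes, 0 to 14 dropped under 2-fold in a setting, the most with a floor of 2000, where Ccnd1, Cd44, Ehd4, Emcn, Foxf2, Kcnj10, Mmp14, Ndp, Pdgfb, Slc40a1, Thy1 and Tspan12 did so besides Kmt2c and Ulk2, chosen for lying at the threshold. With rd1 cells only, Ccnd1, Emcn, Itga6, Mmp14, Nrp1, Slc16a1, Slc39a10 and Slc40a1 did so. Il6st dropped under it with means and without rd1 A4 or B3, Ccnd1 without rd1 B4 or A4, Cd44 without rd1 B3, and Slc16a1 after scaling by the 90th percentile, with means and without congenic A3, A4, rd1 A1 or rd1 A4. The median difference of the MHC class I list was 0.08 after quantile normalization and 0 with a floor of 2000. The causes of these changes were not tested. No paired analysis was possible because no test was made and replicate names tie no cell of one side to a cell of the other.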
